A study of Mus musculus with 10 samples.

Results

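The chemokine ligands Cxcl9, Cxcl10, Cxcl2, Ccl3, Ccl4 and Ccl5 were examined in mouse acute lymphoblastic leukaemia recovered from transplanted animals. Every probe set whose platform gene symbol was one of these 6 names was taken, which gave 7 of the 45101 probe sets on the array, with 2 for Cxcl9 and 1 for each of the others, or 6 of 18193 named genes. All samples were C57BL/6 leukaemia, named NSTY in the labels, that carried human p210 bcr/abl and a deletion in the Ink4a/Arf locus and was sorted from bone marrow by its GFP marker. Recipients were C57BL/6 mice prepared with total body irradiation and 5-fluorouracil. In the syngeneic group (5 animals) they received C57BL/6 marrow and spleen cells, and in the allogeneic group (5 animals) C3.SW marrow and spleen cells, a strain matched to C57BL/6 at the MHC and mismatched at minor histocompatibility antigens. The leukaemia was sorted and moved to newly transplanted recipients after 2 to 3 weeks, and RNA was taken after 3 serial transplants. The sources used here do not give the ages of the animals, or whether animals of a group received leukaemia from the same earlier recipient. Each p-value therefore reflects only the variation among these 10 animals.

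Chemokines are small secreted proteins that direct leukocyte migration through G protein-coupled receptors. CXCL9 and CXCL10 bind CXCR3 on activated T and NK cells; transcription of Cxcl9 is driven chiefly by interferon-gamma, and that of Cxcl10 by type I and type II interferons and NF-kB. CXCL2 attracts neutrophils through CXCR2, and CCL3 and CCL5 bind CCR1 on myeloid cells and T cells. CCL4 is a close relative of CCL3. Macrophages, dendritic cells and activated lymphocytes are common sources of these ligands. The comparison asks whether leukaemia passed through an allogeneic immune environment carried more chemokine ligand RNA than leukaemia passed through a syngeneic one.

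Levels are given as log2 of the deposited intensity after quantile normalization between arrays. Each array had its own background limit, the 95th percentile of 27 control probe sets for bacterial transcripts, which lay between 4.50 and 5.32. Median deposited intensities were 53.3 to 72.1 per array, and the lower quartile was raised on the arrays of allogeneic animals 1, 3 and 4 (18.7 to 19.5 against 13.8 to 14.4 on the other 7). With 5 arrays in a group, the precision of each value is limited by their number. Of 10 measured leukaemia lineage markers 9 were above background on all arrays. Dntt was the lowest of them (means of 6.70 and 6.74) and Cd24a the highest on every array. Cd79a and Vpreb1, a surrogate light chain gene of pre-B cells, were also high (13.0 and 13.6 to 13.7). Pax5, a B-lineage transcription factor, was above background on 4 of 5 syngeneic and 2 of 5 allogeneic arrays (means of 5.58 and 4.37, difference -1.21, limma adjusted p = 0.281).

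Chemokine ligand RNA was near background in both groups. In bulk samples, fewer cells of a type and less RNA per cell cannot be told apart. Of the 70 member values, 29 exceeded the limit of their array, of which Cxcl10 gave 9 of 10, Cxcl9 9 of 20, Ccl3 5 of 10, Cxcl2 4 of 10, Ccl5 2 of 10 and Ccl4 none. The group means of 5 probe sets were higher in allogeneic leukaemia and those of 2 were lower, but limma called 0 of the 7 at a Benjamini-Hochberg adjusted p under 0.05, where 0.411% of the 45037 probe sets tested were called. On the level of genes 0 of 6 were called, where 0.583% of all genes were called (0.506% higher and 0.077% lower in the allogeneic group). At an unadjusted p under 0.05, limma gave 2 of the 7, both of Cxcl9, where 16.9% of all probe sets passed. An exact permutation test gave the same 2 at p under 0.05. Only 1 of the 7 had groups that did not overlap, where 4.74% of all probe sets, and 2.37% in the same higher direction, were without overlap. Over genes it was 1 of 6, against 4.83% of all genes (2.94% higher and 1.9% lower in the allogeneic group).

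**Figure D1:**
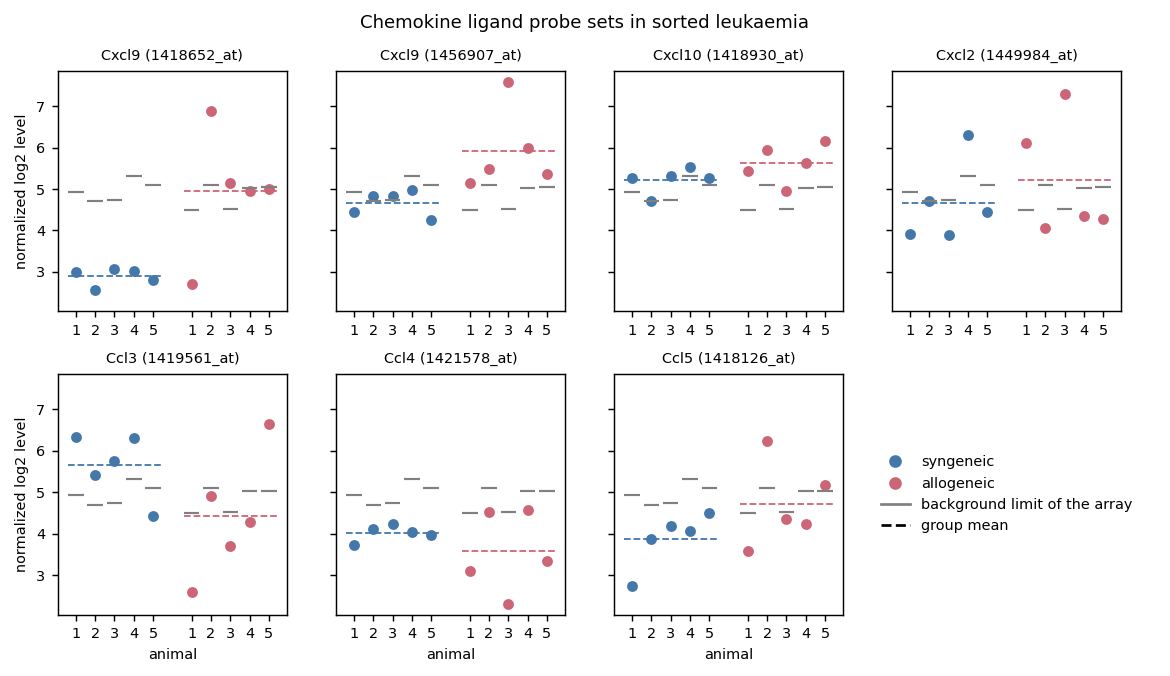
Normalized log2 level (vertical axis) of the 7 chemokine ligand probe sets in each animal (horizontal axis), with dashed lines for group means and a grey bar for each array's background limit. Syngeneic values of the dimmer Cxcl9 probe set all lie between 2.57 and 3.07, while the allogeneic ones spread from 2.70 to 6.89; every value of Ccl4 lies below its limit.

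Cxcl9 had the largest positive difference of the 6 genes. The brighter of its probe sets read 4.44, 4.83, 4.82, 4.97 and 4.25 in syngeneic animals 1 to 5 and 5.14, 5.48, 7.59, 5.98 and 5.36 in allogeneic animals 1 to 5. All 5 allogeneic values lay above all syngeneic ones, and allogeneic animal 3 stood highest. The difference was 1.25 on the log2 scale (SE 0.42, 95% confidence interval 0.30 to 2.20, limma adjusted p = 0.189). The exact 2-sided permutation p was 0.00794, the smallest that 252 splits can give, and over all 18193 genes it adjusted to 0.164. Values exceeded the limit on 2 of 5 syngeneic and 5 of 5 allogeneic arrays.

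The other Cxcl9 probe set ranked the animals differently. This dimmer probe set read 2.99, 2.57, 3.07, 3.03 and 2.81 in the syngeneic animals, all below the limit. In allogeneic animals 1 to 5 it read 2.70, 6.89, 5.16, 4.96 and 4.99, so that animal 1 stayed inside the syngeneic range while animal 2, and not animal 3, was highest. The place of animal 1 depended on the normalization. Its deposited intensity of 8.07 lay above the syngeneic ones (5.39 to 7.57). The difference was 2.05 (SE 0.61, interval 0.69 to 3.40, limma adjusted p = 0.154), with only allogeneic animals 2 and 3 above the limit. No minimum fold can be given, since the allogeneic mean of 4.94 did not exceed the level that the limits of the 5 syngeneic arrays set on average. Without allogeneic animal 1 this probe set was called (difference 2.61, SE 0.39, limma adjusted p = 0.0141). In the same fit 4.49% of all probe sets were called and 1.4% were called higher. The brighter probe set was not called there (1.44, SE 0.43, limma adjusted p = 0.0953). Since the animal left out is the one in which the dimmer probe set was seen to be low, its call supports nothing. Without allogeneic animal 3 the brighter probe set had a difference of 0.83. Without allogeneic animals 1, 3 and 4 together the differences were 3.05 (limma adjusted p = 0.0326) for the dimmer probe set and 0.76 for the brighter probe set. Only allogeneic animals 2 and 5 remain in that fit, and animal 2 had the highest value of the dimmer probe set. Calls were more frequent there, with 393 genes called higher against 92 with all arrays.

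Cxcl10 was the ligand most often above background and differed little between the groups. It read 5.27, 4.70, 5.32, 5.54 and 5.27 in the syngeneic animals and 5.42, 5.93, 4.95, 5.63 and 6.16 in the allogeneic animals. The groups overlapped, with allogeneic animal 3 below 4 of the 5 syngeneic values and only animals 2, 4 and 5 above all of them. The difference was 0.40 (SE 0.24, interval -0.15 to 0.94, limma adjusted p = 0.439), and it was 0.83 without allogeneic animals 1, 3 and 4. The interval reaches up to nearly a doubling of the signal, so the test does not show that the level was equal.

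Cxcl9 and Cxcl10 lie on mouse chromosome 5, at chr5:92321331-92328079 and chr5:92346638-92348889 in GRCm38.p6, with 18558 bases between them. The 250 bases before the RefSeq gene start of both ligands are shown beside those of Gbp2, a guanylate-binding protein gene that rose clearly on the same arrays, because all 3 are interferon-inducible and moved by different amounts. Windows are chr5:92328080-92328329 on the minus strand for Cxcl9, chr5:92348890-92349139 on the minus strand for Cxcl10 and chr3:142620413-142620662 on the plus strand for Gbp2, each written 5′ to 3′ along its gene. Capitals mark matches, on either strand, to the core of the interferon-stimulated response element (ISRE; GAAA, any 2 bases, GAAA), the gamma-activated site (GAS, TTCNNNGAA), the kappa-B consensus or the TATA box (TATAAA).
Cxcl9: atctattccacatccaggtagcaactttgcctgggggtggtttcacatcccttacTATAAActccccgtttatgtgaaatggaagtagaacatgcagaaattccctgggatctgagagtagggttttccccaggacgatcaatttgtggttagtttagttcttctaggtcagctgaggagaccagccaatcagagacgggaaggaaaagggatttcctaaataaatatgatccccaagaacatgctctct
Cxcl10: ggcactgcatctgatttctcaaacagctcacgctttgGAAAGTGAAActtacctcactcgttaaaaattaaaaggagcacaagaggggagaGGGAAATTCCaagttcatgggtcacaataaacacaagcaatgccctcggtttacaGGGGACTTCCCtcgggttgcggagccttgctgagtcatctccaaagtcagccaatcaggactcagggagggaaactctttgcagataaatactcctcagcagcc
Gbp2: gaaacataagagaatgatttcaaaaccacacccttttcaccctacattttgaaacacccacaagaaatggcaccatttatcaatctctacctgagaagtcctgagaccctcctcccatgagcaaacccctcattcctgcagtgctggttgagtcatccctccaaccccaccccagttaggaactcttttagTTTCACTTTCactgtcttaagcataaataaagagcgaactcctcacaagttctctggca

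Among 32851 RefSeq windows of this length, 2.98% held the ISRE core, 7.02% the GAS, 7.25% the kappa-B consensus and 12.4% the TATA box. The Cxcl10 window held 1 ISRE core and 4 kappa-B matches, 3 of which overlap each other, and the Gbp2 window held 1 ISRE core on the opposite strand. In the Cxcl9 window only a TATA box match far from the gene start was found. Of 11 interferon-inducible GTPase genes with a window examined, 10 held an ISRE core and 6 a GAS. No window was examined for Iigp1, Gm4951 and Gbp6, which had the largest rises of the GTPases below. The search was set to skip listed genes on 1 chromosome, so a window not examined was not always unavailable. The 11 include Tgtp1 and Gbp5, which were not measured on the arrays. Ifi47, which rose, held neither motif, and Gbp3 and Gbp7, which did not pass, held an ISRE core. These matches are descriptions of the letters and not of bound sites.

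Interferon-inducible GTPases rose in the same leukaemia samples. These proteins, the IRG and GBP families with the Mx proteins, act against intracellular pathogens and are textbook interferon targets. Of 19 listed genes 15 were measured, and 9 of them rose by limma while 6 did not pass, against 0.506% of all 18193 genes called higher. Gbp2 read 10.36, 10.96, 11.04, 10.90 and 11.16 in the syngeneic and 13.26, 13.08, 12.87, 12.98 and 12.90 in the allogeneic animals, a rise of 2.14 (SE 0.16, adjusted p = 0.000302). The lowest allogeneic value of Gbp2, 12.87, lay above the highest syngeneic one, 11.16. Iigp1 rose by 7.56, Gm4951 by 6.85, Gbp6 by 5.73, Gm12185 by 2.05, Igtp by 2.00, Irgm2 by 1.98, Irgm1 by 1.51 and Ifi47 by 0.76. Calls of some of these depended on the setting: over 20 alternatives Ifi47 lost its call in 13 and Irgm2 in 8, and Ifi47 also missed the threshold in the fit over probe sets (adjusted p = 0.0684). Gbp2, Gm12185 and Irgm1 lost theirs in 1 of 20 each. The fitted values of Iigp1 and Gm4951 start from syngeneic levels near or below background, and Gm4951 was at least 37.2-fold higher. Gbp2b (1.95), Gbp8 (1.62), Mx1 (0.99), Mx2 (0.63), Gbp3 (0.36) and Gbp7 (0.044) did not pass, although Gbp2b passed in 5 of 19 alternatives and Gbp8 in 6 of 20. The last 2 had smaller differences than Cxcl10, and that of Gbp7 was -0.019 on deposited values and -0.053 on median-centred values. Median differences were 1.95 over the 15 GTPases, 0.48 over the 6 chemokine ligands and 0.011 over all genes.

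**Figure D2:**
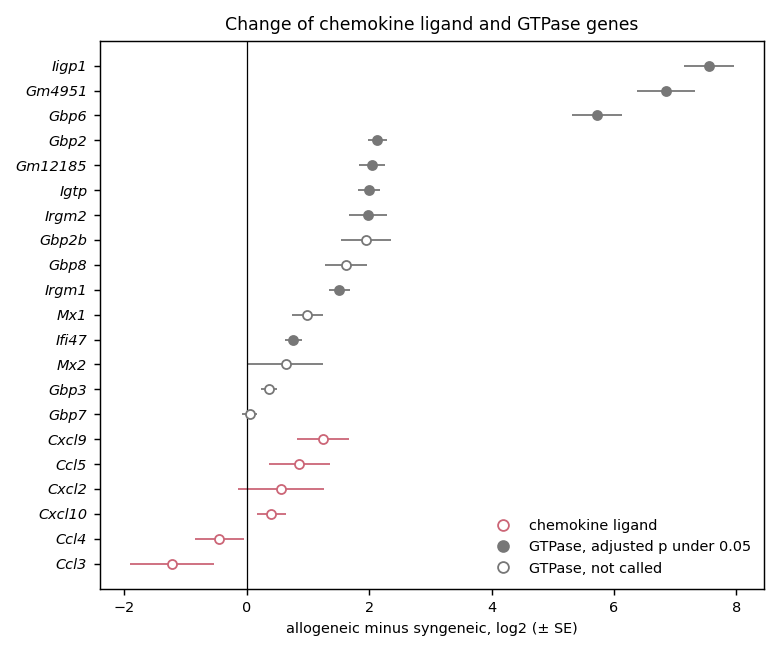
Allogeneic minus syngeneic difference on the log2 scale (horizontal axis, bars are standard errors) of the 6 chemokine ligands and the 15 measured GTPase genes, from the fit over 18193 genes. Filled points mark adjusted p under 0.05; the ligands run from -1.22 for Ccl3 to 1.25 for Cxcl9 and none is filled, while the GTPases run from 0.044 (Gbp7, negative under other scalings) to 7.56. Ccl4 was below background on every array.

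Both changes were set side by side on each array as the mean log2 level of the 15 GTPases minus the level of a ligand. Only the change of this gap between groups is read, since probe sets of different genes do not share a scale. The GTPase mean was 7.71 to 8.22 in syngeneic and 10.02 to 10.72 in allogeneic animals, a difference of 2.41. The GTPases were chosen with their rise already known, so that a gene with no change would show a gap wider by that amount, and the gaps are given as a description with no test. For Cxcl10 the gap was 2.76 ± 0.40 (SD, n = 5) in syngeneic and 4.77 ± 0.64 (SD, n = 5) in allogeneic leukaemia, wider by 2.01. The gap to Cxcl9 was wider by 1.16, with overlapping groups. Gaps to the remaining 4 ligands are not given in full, because these were above background on 5 of 10 arrays or fewer and their levels are partly bounds.

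Cxcl2, the neutrophil chemokine, was high in single animals of both groups. It read 3.91, 4.71, 3.89, 6.31 and 4.45 in the syngeneic and 6.11, 4.06, 7.28, 4.34 and 4.28 in the allogeneic animals. Syngeneic animal 4 and allogeneic animals 1 and 3 stood apart from the other 7, which lay between 3.89 and 4.71. The difference of 0.56 (SE 0.70, interval -0.99 to 2.11, limma adjusted p = 0.723) was smaller than the spread in either group. It fell to 0.04 without allogeneic animal 3 and to -0.48 without allogeneic animals 1, 3 and 4, and it was 0.97 without syngeneic animal 4.

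Ccl3, which encodes MIP-1alpha, had the lowest difference of the 6. Its values were 6.33, 5.43, 5.75, 6.31 and 4.44 in the syngeneic and 2.58, 4.91, 3.71, 4.29 and 6.64 in the allogeneic animals. Syngeneic leukaemia exceeded background on 4 of 5 arrays and allogeneic leukaemia only in animal 5, which gave the highest value of all 10. The difference was -1.22 (SE 0.68, interval -2.75 to 0.30, limma adjusted p = 0.396). It was -0.76 without allogeneic animal 1. Without allogeneic animals 1, 3 and 4 it was 0.13, from animal 2, which lay 0.74 below the syngeneic mean, and animal 5, which lay 0.99 above it.

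Windows before the gene starts of Cxcl2 (chr5:90903649-90903898, plus strand) and Ccl3 (chr11:83649379-83649628, minus strand) in GRCm38.p6 are shown because both genes are textbook NF-kB targets and differed between single animals more than between groups. Capitals mark the same motifs as above.
Cxcl2: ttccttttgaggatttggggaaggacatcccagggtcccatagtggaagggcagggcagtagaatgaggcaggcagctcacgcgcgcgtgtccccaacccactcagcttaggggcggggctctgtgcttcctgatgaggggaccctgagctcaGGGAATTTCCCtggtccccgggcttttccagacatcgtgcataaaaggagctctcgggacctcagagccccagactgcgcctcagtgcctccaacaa
Ccl3: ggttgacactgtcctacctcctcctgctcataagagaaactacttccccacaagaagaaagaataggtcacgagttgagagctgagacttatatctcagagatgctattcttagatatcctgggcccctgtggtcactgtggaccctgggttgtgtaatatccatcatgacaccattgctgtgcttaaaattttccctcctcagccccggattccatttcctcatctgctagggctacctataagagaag
The Cxcl2 window held 2 kappa-B matches, which overlap on opposite strands, and the Ccl3 window held none of the 4 motifs. Of 17 measured NF-kB regulators and rapid targets 0 passed limma's test, against 0.583% of all genes. At an unadjusted p under 0.05 there were 3, against 16.9% of all genes, and the median difference was 0.02. Tnfaip3, an inhibitor of NF-kB signalling, had the smallest p (0.44, SE 0.15, adjusted p = 0.192).

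Ccl4, the close relative of Ccl3 on the same stretch of chromosome 11, was below the limit on all 10 arrays. It read 3.74, 4.11, 4.25, 4.04 and 3.96 in the syngeneic and 3.09, 4.53, 2.31, 4.57 and 3.35 in the allogeneic animals, and no fold can be given (limma adjusted p = 0.614). Ccl5, which encodes RANTES, read 2.73, 3.86, 4.18, 4.05 and 4.49 in the syngeneic animals, all below the limit. In the allogeneic animals Ccl5 read 3.58, 6.24, 4.36, 4.24 and 5.18, with animals 2 and 5 above the limit and the other 3 inside the syngeneic range. As deposited intensities, those of allogeneic animals 3 and 4 (25.12 and 22.61) lay above the highest syngeneic one (20.71). The Ccl5 difference of 0.86 (SE 0.50, interval -0.25 to 1.96) did not pass (limma adjusted p = 0.414). It fell to 0.48 without allogeneic animal 2 and was 1.85 without allogeneic animals 1, 3 and 4.

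Other chemokine ligands and the receptors gave no call either. Of 29 other ligands measured, limma called 0, against 0.583% of all genes. At an unadjusted p under 0.05 there were 3, against 16.9% of all genes, and the median difference was 0.34. Ccl6, a CC chemokine of myeloid cells that binds CCR1, had the smallest p and was far above background. It read 8.09, 8.75, 8.83, 9.67 and 8.16 in the syngeneic and 8.43, 10.58, 10.46, 10.44 and 10.33 in the allogeneic animals. Allogeneic animals 2 to 5 lay above every syngeneic value and animal 1 lay among them. Its difference was 1.35 (SE 0.45, adjusted p = 0.186), and 1.75 (SE 0.30, limma adjusted p = 0.0231) without allogeneic animal 1, when 3.5% of all genes were called and 2% were called higher. Since the animal left out is the one in which Ccl6 was seen to be low among the allogeneic values, this call supports nothing. Ccl8 (0.89), Ccl25 (0.45) and Ccl22 (0.58) came next with adjusted p-values of 0.203, 0.231 and 0.303, and Ccl8 and Ccl22 were near background.

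Of 21 measured chemokine receptor genes 0 were called by limma, against 0.583% of all genes, and 5 had an unadjusted p under 0.05, against 16.9%. Receptors above background on any array numbered 15 of the 21. Ccrl2, which encodes an atypical receptor that binds chemerin, had the smallest p. Its values were 5.49, 6.14, 6.00, 5.31 and 5.78 in the syngeneic and 6.55, 7.72, 6.52, 7.08 and 7.19 in the allogeneic animals. The groups did not overlap, as for 2.94% of all genes in that direction, and the difference was 1.27 (SE 0.26, adjusted p = 0.0657). Without allogeneic animal 1 Ccrl2 was called (1.38, limma adjusted p = 0.0289), when 2% of all genes were called higher. Ccr9 (0.89, adjusted p = 0.228) and Ccr6 (-0.94, adjusted p = 0.216) did not pass, and Cx3cr1 was below the limit on all arrays. Cxcr3, the receptor of CXCL9 and CXCL10, had means of 5.60 and 5.59, and Cxcr4, which holds cells in the marrow, had 12.97 and 13.02. None of 6 chemokine-processing and chemokine-binding factors was called by limma, and 0 had an unadjusted p under 0.05; among them Dpp4, a peptidase that truncates CXCL10, had means of 13.52 and 13.41 (adjusted p = 0.585).

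**Figure D3:**
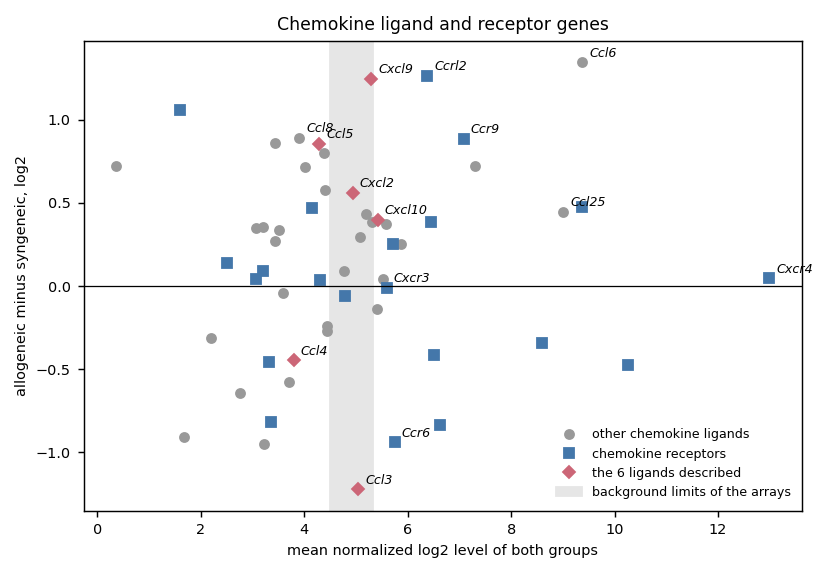
Allogeneic minus syngeneic difference on the log2 scale (vertical axis) against the mean normalized log2 level of both groups (horizontal axis) for 29 other chemokine ligands, 21 receptors and the 6 ligands described, with the range of the array background limits shaded. The 6 ligands lie in or near the shaded band, whereas Ccl6 and Ccrl2, which had differences of 1.35 and 1.27, lie to the right of it.

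Genes upstream of the interferon chemokines were measured on the same arrays. Irf1, a transcription factor that drives interferon-gamma responses, rose by 1.71 (SE 0.14, limma adjusted p = 0.000515) and was the only 1 of 11 measured interferon-gamma signalling genes that passed, where 0.506% of all genes were called higher. Irf9 (0.99, adjusted p = 0.0893) and Socs1 (0.78, adjusted p = 0.226) had the next smallest p-values. Ifng was not above background on any array. Of 8 measured type I interferon signalling genes 0 passed limma's test and 2 had an unadjusted p under 0.05, against 16.9% of all genes, of which Irf7 had a difference of 1.39 (adjusted p = 0.0923). Ifnb1 and Ifna4 were not above background on any array.

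The allogeneic animal with the highest GTPase mean had the lowest level of several chemokines in its group. That mean stood in animal 1 at 2.74 above the syngeneic mean, against 2.04 to 2.48 in the other 4 allogeneic animals. For the dimmer Cxcl9 probe set the same animal stood at -0.19, against 2.07 to 4.00 in the other 4, for Ccl6 at -0.26 against 1.63 to 1.88, for Ccl5 at -0.28 against 0.38 to 2.37 and for Ccl3 at -3.07 against -1.94 to 0.99. Deviations of levels near background depend on the normalization. The deposited intensity of the dimmer Cxcl9 probe set in animal 1 (8.07) was the lowest allogeneic one but above every syngeneic one (5.39 to 7.57). The value of animal 1 for the brighter Cxcl9 probe set was also the lowest of the 5, at 0.48 against 0.70 to 2.93. Other ligands did not follow this order. For Cxcl10 animal 1 stood at 0.20 and animal 3 lowest at -0.27, for Cxcl2 animal 1 was second highest of the 5 at 1.45, and for Ccl4, below background throughout, animal 3 was lowest. Cxcl11, a further CXCR3 ligand, had its highest value of all 10 animals in animal 1 (5.55).

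Some macrophage genes were low in the same animal and others were not. The C1q genes, Ccr1 and Lyz2, like Cxcl11, were chosen after their values were seen. C1qb, a complement gene of macrophages, stood at -4.57 relative to the syngeneic mean in allogeneic animal 1 and at -0.16 to 1.74 in the other 4. C1qa stood at -3.15 against -0.89 to 1.30, but C1qc, the third gene of the same complex, stood at 0.26 and its level of 6.22 lay above all 5 syngeneic values. Ccr1, a receptor of CCL3 and CCL5 on myeloid cells, stood at -3.49 against -1.33 to 0.54. Lyz2, the lysozyme gene of myeloid cells, stood at -2.77 against 0.75 to 1.45. Without animal 1 it was called higher in the allogeneic group (1.10, limma adjusted p = 0.0180), when 2% of all genes were called higher. Since the animal left out is the one in which Lyz2 was seen to be low, this call supports nothing.

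Over the whole list, 0 of 18 macrophage and monocyte markers passed limma's test, against 0.583% of all genes. At an unadjusted p under 0.05 there were 2 of these markers, against 16.9% of all genes, and their median difference was 0.21. Their summed normalized intensity was 18803 to 21338 in syngeneic and 23595 to 26169 in allogeneic animals, without overlap. Lack of overlap was not particular to this list. Sums of stroma and endothelium markers (630 to 817 against 825 to 1078) and of leukaemia lineage markers (60683 to 62371 against 62499 to 64209) did not overlap either. The same held for the interferon-gamma signalling genes (13727 to 15127 against 16317 to 19214). Such a sum of linear intensities mostly reflects the few brightest markers. Of the 18 genes 1 was itself without overlap, against 4.83% of all genes. Ctss, the brightest, and Mpeg1 had their highest values of all 10 animals in allogeneic animal 1 (13.47 and 13.14). Fcgr3, on average brighter than Mpeg1, stood at 12.25 there, the lowest of the allogeneic values. Cd14 and Itgam were not above background on any array. Summed intensity was 1019 to 1510 against 1250 to 2081 for 8 NK cell markers, of which 5 had a positive difference. Gzma had the smallest p (1.06, limma adjusted p = 0.0995), and Ncr1, Klrk1, Gzmb and Eomes were at background. Prf1 and Klrd1, like Gzma above background on all arrays, had lower means in the allogeneic group. The sum was 659 to 1134 against 786 to 1404 for 8 dendritic cell markers, with Itgax and Cd209a at background. For 10 T cell markers it was 404 to 476 against 296 to 437, with Cd8b1 and Cd28 at background. For 10 granulocyte markers it was 1912 to 4781 against 1347 to 7644, with Csf3r at background. The part of these markers in the chemokine differences was not tested.

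**Figure D4:**
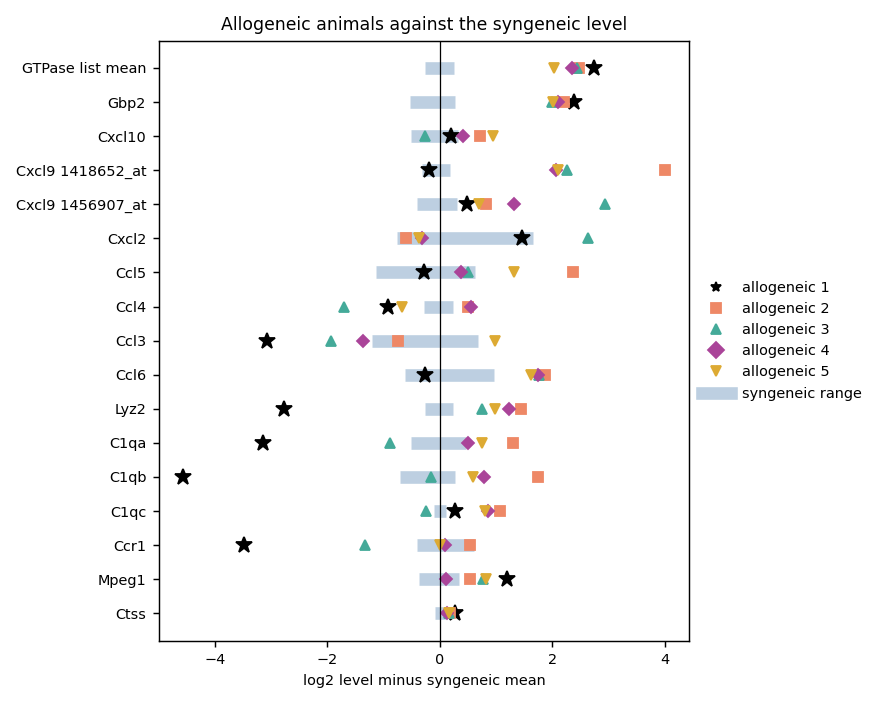
Level in each allogeneic animal minus the syngeneic mean (log2, horizontal axis) for the GTPase list mean, Gbp2, the 6 chemokine ligands, Ccl6 and 7 myeloid genes, with the range of the 5 syngeneic animals as a blue bar. Allogeneic animal 1 (star) is the rightmost point for the GTPase mean, at 2.74, and the leftmost for C1qb, at -4.57.

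Profiles most like those of the ligands were sought for the 3 members above the limit on at least 5 arrays, among 12192 genes that met the same condition. Over the 10 arrays, Cxcl9 was most like Spire2 (Pearson r = 0.97, Spearman rho = 0.94), Lipg (r = 0.96, rho = 0.78) and Armc4 (r = 0.96, rho = 0.85). Cxcl10 was most like 1110059E24Rik, Vwa7 and Ppp1r7 (r = 0.95 for each). Ccl3 was most like Zfp36 (r = 0.92, rho = 0.89), which encodes the mRNA decay factor tristetraprolin, and then Spns2 (r = 0.92) and Serpinf1 (r = 0.91). These are the highest of many correlations over few arrays that share a normalization, and they are given as a description.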

How the data were processed

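RNA of GFP-sorted leukaemia from 10 animals was hybridised to Affymetrix mouse arrays after labelling with NuGEN kits, per the labels' protocols. Values deposited by the authors are linear intensities, 1 for each probe set on each array; their summarisation and scaling were not stated in the labels. Medians differed between arrays, so log2 intensities were quantile normalized. Gene names came from the platform annotation, and 34741 symbols were updated by gene identifier to RefSeq (GRCm38.p6). Of 45101 probe sets, 34945 had 1 symbol, 932 several, 9160 none and 64 were controls. A gene took its probe set of highest mean, which gave 18193 genes. Values of member probe sets come from a limma fit over 45037 probe sets, and those of other genes from a fit over 18193 genes, with Benjamini-Hochberg adjustment over each. Adjusted p-values are from limma unless an exact permutation test is named. Promoter sequences are from RefSeq, where Ccl4 and Ccl5 were not matched. R 4.3.3 with limma 3.58.1 was used. On simulated data of 18193 genes for this comparison, limma recovered 90.4% of genes changed by 2 on the log2 scale and 50.6% of those changed by 1, with 5.70% false calls. Changes were placed only in genes above the lower 25% by mean level, with independent Gaussian noise. These shares therefore do not give the power for ligands near background.

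The members and gene lists were chosen with earlier results of these data known. The rule for named genes took all member and GTPase genes, called genes and up to 4 genes of smallest p per list, the 2 brightest markers of each cell type and the 3 most alike genes per member; not every such gene is printed. C1qa, C1qb, C1qc, Lyz2, Ccr1, Cxcl11, Pax5, Dntt, Cxcr3, Cxcr4, Dpp4, Ifng, Ifnb1, Ifna4, Cd79a, Klrd1 and the markers given as at background were named outside this rule. Also listed, without a call by limma, were megakaryocyte and platelet (median difference 0.08), stroma and endothelium (0.44), erythroid (-0.14), mature B cell (-0.19) and leukaemia lineage markers (0.03). Alternatives covered normalization, a pseudocount of 16, probe set choice, filters on low values, eBayes settings, the background limit, the replicate block and left-out arrays.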

Additional observations from a re-analysis of the deposited data

Results flagged for a closer look

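In 52 groups of 5 animals, 1 for each ligand and GTPase probe set and condition, a value far from the other 4 was sought, where chance gives about 1 in 20. None was found among the 7 chemokine ligand probe sets, and 2 were found among the GTPases, both in allogeneic animal 1. Gbp8 stood at 9.52 there, above 7.54 to 8.03 in the other 4 allogeneic animals. A dimmer probe set of Gbp7, not the one used for the gene, stood at 12.11, above 11.14 to 11.41.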

How the results depend on the processing

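For Cxcl9, Cxcl10, Ccl4 and Ccl5 the gene difference kept its sign and stayed uncalled under each alternative run. Differences turned sign without the arrays of allogeneic animals 1, 3 and 4 for Ccl3 (0.13) and Cxcl2 (-0.48), and for Gbp7 on log2 values as deposited (-0.019), on median-centred values (-0.053) and without those 3 arrays (-0.13), with -0.022 to 0.12 when leaving out 1 array. The dimmer Cxcl9 probe set was called without those 3 arrays (3.05), where 5 against 2 animals remain, and ran from 1.56 to 2.61 when 1 array was left out. Exact permutation p-values were computed for the gaps to the GTPases, but since the GTPases were chosen for their rise these support nothing. Those for Ccl3, Ccl4 and Cxcl10 were under 0.05 after adjustment and not so without those 3 arrays, where 5 against 2 animals remain. There the gaps to these ligands were wider by 2.13, 2.34 and 1.43 on the log2 scale, and the gap to Ccl5 by 0.41. The gap for Ccl5 crossed that threshold on deposited or median-centred values (1.32) and with a pseudocount of 16 (1.65), as did those for Cxcl2 (1.74) and Cxcl9 (1.24) with the pseudocount; with 1 array left out they ran from 1.19 to 1.92, 1.37 to 2.36 and 0.89 to 1.58. The cause of these changes was not tested.

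Genes called higher (92) and lower (14) became 61 higher on median-centred values, 196 and 56 with the pseudocount, 393 and 265 without those 3 arrays, 60 higher with probe set means, 189 and 48 or 193 and 76 with the lower 25% or 50% of genes left out, and 204 and 76 with an intensity trend. Leaving out 1 array gave 49 to 364 higher and 6 to 272 lower. Animal numbers did not pair the samples (correlations of deviations from -0.08 to 0.07). With the replicate block, 14 genes were called higher and 0 lower, and the gaps for Ccl3 (3.63), Ccl4 (2.86) and Cxcl10 (2.01) missed the threshold in a paired exact test, whose smallest possible p is 0.0625. With the highest bacterial control as the limit, 23 member values exceeded it. Signal near background limits every ligand.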
